A study of Oryctolagus cuniculus with 4 samples.

Results

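The genes described here encode the intraflagellar transport (IFT) machinery, the Bardet-Biedl syndrome (BBS) proteins and the proteins of centrioles and centrosomes. They were the probes of a rabbit oligonucleotide array whose annotation mentions intraflagellar transport, Bardet-Biedl, a centrosomal protein, centrioles, nephronophthisis or Meckel syndrome, or whose gene symbol starts with IFT, BBS or CEP followed by a number. The rule found 128 of 43603 probes, which stood for 48 of the 10370 genes with a symbol or locus name and a tested probe. Of the 128 probes, 123 were found by the symbol, 59 by the annotation and 54 by both.

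Day 6 rabbit blastocysts without a father, called parthenotes, were compared with blastocysts fertilised in vivo, all of the New Zealand White strain and 6 days old. Parthenotes came from unfertilised oocytes activated with electrical pulses and then cycloheximide and 6-DMAP, and they developed in the oviduct and uterus of recipient does. Fertilised blastocysts were untreated and came from inseminated does, and both kinds were flushed from the uterus and pooled, so that a sample was a pool of embryos and not 1 embryo. Each of 4 two-colour arrays on 1 slide carried a parthenote pool in Cy3 and a fertilised pool in Cy5, which the submitters called biological replicates, and with 0 dye swaps a dye effect on a probe and a difference between the groups cannot be told apart.

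Centrioles are barrels of microtubules. A pair of them with the surrounding pericentriolar material forms the centrosome, and the older centriole carries appendages with which it docks at the membrane as the basal body of a cilium. From there IFT-B and IFT-A complexes, driven by kinesin-2 and dynein-2, carry building material along the axoneme, and the BBSome carries membrane proteins. In rabbits and most other mammals outside the rodents, fertilisation brings a sperm centriole into an egg that has lost its own, so a parthenote has to form its first centrioles without a sperm centriole.

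On an array, 25805 to 26339 probes stood well above background in Cy3 and 27508 to 27835 in Cy5, and array ratios correlated with each other at 0.67 to 0.81 (Pearson, across probes, which are not independent replicates). Blastocyst markers were present: the pluripotency gene POU5F1 and the trophectoderm genes GATA3, KRT8 and TFAP2C stood well above background with both dyes on all 4 arrays. Of the member genes, 47 of 48 did so too. The exception was CEP126, a basal body protein, whose only probe reached that level on 1 array in parthenotes and on none in fertilised embryos. Values below are log2 ratios of parthenote over fertilised from the brightest probe of a gene, given as mean and SD over the 4 arrays (n = 4), with a gene called changed where limma's p, adjusted over 43595 probes by Benjamini-Hochberg, was under 0.05.

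Among the 48 member genes, 9 were higher in parthenotes, 7 were lower and 32 did not pass the test. Over all named genes 11.6% were higher and 12.3% lower, and among the 6993 bright named genes (both dyes well above background on every array) the shares were 14.7% and 14.6%. Counted by probe, 19 of the 128 member probes were higher and 17 lower, where 9.53% of all probes were higher and 11.1% lower. Of the member probes 118 were bright, but only 24137 of all 43595 probes were, so the 2 sets are unlike in brightness. The ratio was above 0 on all 4 arrays for 19 member genes and below 0 on all 4 for 11, beside 22.6% and 25.9% of all named genes. Of the 6993 bright named genes, 1987 were above 0 on all 4 arrays and 2099 below. The median ratio of the members was 0.09 and that of all bright named genes -0.01. Changes were small: the median size of the log2 ratio was 0.22 in the 47 bright members and 0.20 in all bright named genes, and 4 members, or 8.51%, changed by over 1.5-fold against 9.74% of bright named genes. In whole embryos, fewer cells of a type and less RNA per cell cannot be told apart.

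**Figure D1:**
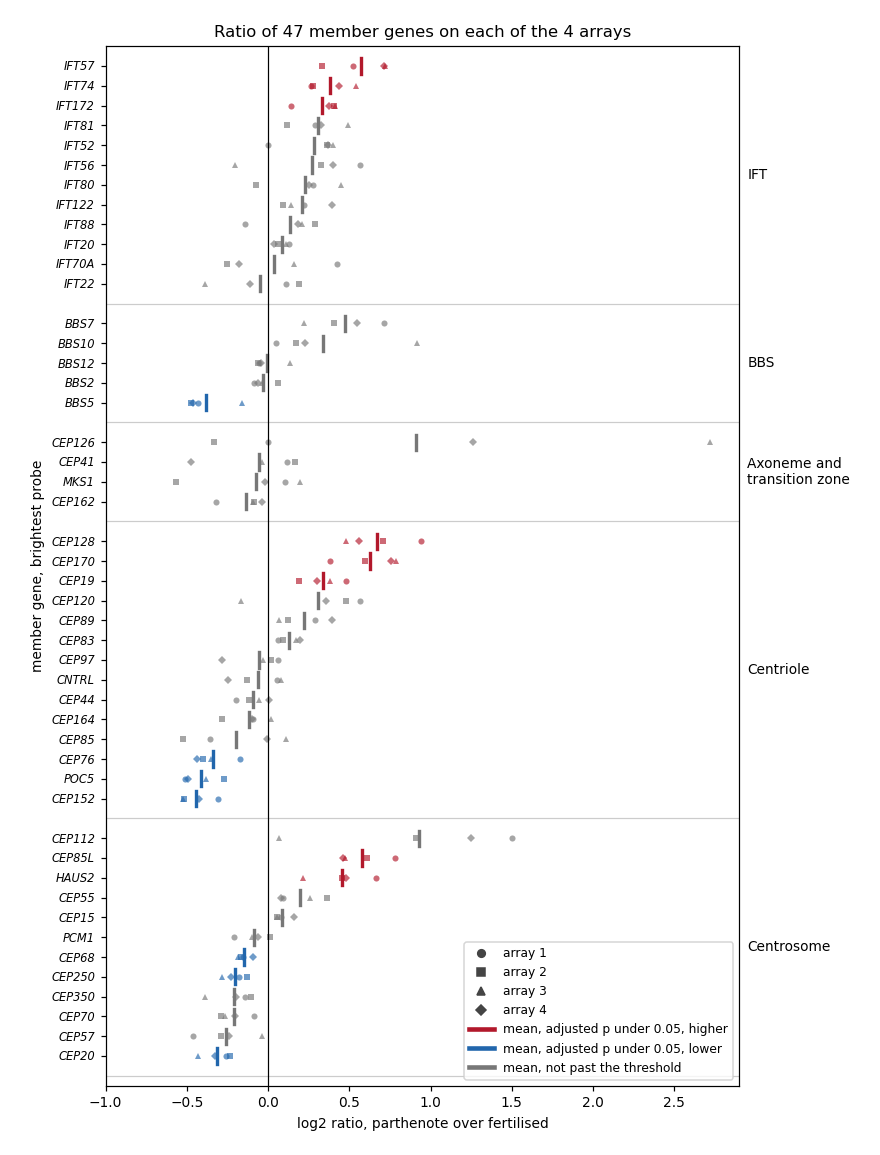
Each row is 1 of 47 member genes (brightest probe) and the horizontal axis its log2 ratio of parthenote over fertilised; the 4 symbols are the 4 arrays and the bar their mean, in red or blue where limma's adjusted p was under 0.05. Of the 12 IFT means 11 lie right of 0, while centriole and centrosome genes lie on both sides, from 0.93 for CEP112 to -0.44 for CEP152.

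Most IFT genes had ratios above 0 with the deposited dye normalization. Of 12 genes, 3 rose (IFT57, IFT74 and IFT172), 0 fell and 9 did not pass the test. The means of 11 genes were above 0, and 6 genes were above 0 on all 4 arrays. The median of the 12 genes was 0.24, 0.23, 0.31 and 0.35 on arrays 1 to 4 and 0.25 for the means, whereas all bright named genes had medians between -0.03 and 0.01 on the 4 arrays. This direction depended on how the dyes were scaled: with normexp background correction and median centring in place of the deposited dye normalization, the IFT median was -0.07 while the median of all bright named genes was -0.39, and 10 of the 12 IFT genes still lay above that median. There 0 IFT genes were higher and 4 were lower (IFT20 at -0.57, IFT88 at -0.43, IFT52 at -0.38 and IFT22 at -0.32), and IFT57 (0.0091), IFT74 (0.022) and IFT172 (-0.0066) did not pass. Calls were common in that setting: of all 43595 probes, 14806 were called higher and 16804 lower. With normexp and loess, the IFT median was 0.17 against 0.00 for bright named genes, 11 of the 12 lay above, and 1 passed as higher.

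IFT57 is a subunit of the peripheral part of IFT-B. Its log2 processed signals in parthenote pools were 9.62, 9.59, 9.83 and 9.55 on arrays 1 to 4, and those in fertilised pools were 9.10, 9.26, 9.11 and 8.83. The pools did not overlap, and the lowest parthenote pool was above the highest fertilised pool. How many of all genes separated in this way was not counted. Separation is therefore not read as unusual, here or for the genes below. The ratio was 0.57 ± 0.19 (SD, n = 4, adjusted p = 0.0315), a 1.49-fold higher level.

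IFT74 pairs with IFT81 to form the part of IFT-B that binds tubulin. Parthenote pools measured 7.52, 7.36, 7.58 and 7.47 and fertilised pools 7.26, 7.09, 7.03 and 7.04 on the log2 signal scale. Here too every parthenote pool was above every fertilised pool, with a ratio of 0.38 ± 0.13 (SD, n = 4, adjusted p = 0.0365). Its partner IFT81 had a ratio of 0.31 ± 0.15 and an adjusted p of 0.0686, above 0 on all 4 arrays but not past the threshold.

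IFT172, the largest IFT-B subunit, measured 6.73, 7.15, 7.17 and 6.84 in parthenote pools and 6.58, 6.74, 6.76 and 6.47 in fertilised pools. The groups overlapped across arrays (parthenote pool 1 was below fertilised pools 2 and 3), but within each array the parthenote pool was higher, by 0.14, 0.41, 0.41 and 0.37. The mean ratio was 0.33 ± 0.13 (SD, n = 4, adjusted p = 0.0423).

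The probes of these 3 genes are shown because the IFT calls rest on them and because they differ in how much independent sequence they sample. Each is 60 bases long and written 5′ to 3′ as the array files give it, and capitals mark bases shared with the other probe shown for the same gene. IFT57 had 1 probe. The 5 probes of IFT172 shared between 55 and 59 bases with each other, so they sample 1 place in the transcript, and the brightest and the farthest of them are given. The 2 probes of IFT74 shared 19 bases.
IFT57 probe 1: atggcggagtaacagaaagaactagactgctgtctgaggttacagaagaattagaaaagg
IFT172 probe 1: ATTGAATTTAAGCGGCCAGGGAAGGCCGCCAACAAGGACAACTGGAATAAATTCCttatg
IFT172 probe 2: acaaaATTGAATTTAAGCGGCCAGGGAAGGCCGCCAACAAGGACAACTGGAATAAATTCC
IFT74 probe 1: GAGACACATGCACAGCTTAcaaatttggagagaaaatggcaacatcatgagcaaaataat
IFT74 probe 2: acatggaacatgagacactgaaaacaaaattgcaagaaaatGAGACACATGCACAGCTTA

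The array files place the IFT57 probe at chr14:111832573-111834228, IFT172 probes 1 and 2 at chr2:158647806-158647865 and chr2:158647801-158647860, and the IFT74 probes on the minus strand at chr1:26484249-26488633 and chr1:26484290-26488674, on a rabbit genome build that the files do not name. The 60 bases of the IFT57 probe are thus spread over 1656 genomic bases and those of each IFT74 probe over 4385, whereas the IFT172 probes match without a gap. For IFT172, 1 of 5 probes passed the test (ratio 0.33), although the means of all 5 were close, between 0.30 and 0.38, and their SDs were larger. For IFT74, the brightest probe passed with 0.38, and the other had nearly the same mean of 0.36 with an SD of 0.20 and an adjusted p of 0.0842.

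The other IFT genes did not pass the test by their brightest probe. IFT52, a core IFT-B subunit, had ratios of 0.00, 0.36, 0.40 and 0.37 on arrays 1 to 4 (adjusted p = 0.120), so array 1 alone held no difference. IFT56, which binds the IFT-B core, had a ratio of 0.27 ± 0.33 with a negative value on array 3, and IFT80, an IFT-B subunit mutated in a skeletal ciliopathy, 0.23 ± 0.22 with a negative value on array 2. IFT88, long studied in mouse polycystic kidney, had 0.13 ± 0.19. IFT20, which also sits on the Golgi, had the smallest spread, with 0.13, 0.06, 0.11 and 0.04 on the arrays and a mean of 0.08 ± 0.04 (adjusted p = 0.0684), and 1 of its 5 overlapping probes passed the test at 0.09. IFT70A had 0.04 ± 0.31, and the small GTPase IFT22 was the only IFT member with a negative mean, -0.05 ± 0.26.

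IFT122 was the only IFT-A gene among the members, with a ratio of 0.21 ± 0.13 (SD, n = 4, adjusted p = 0.103). The other IFT-A genes measured on the array, which carry WDR and TTC names and are no members by the rule, were 3 of the 5 listed. WDR35 had 0.39, WDR19 0.25 and TTC21B 0.13. None of the 3 was past the threshold, and all 3 were above 0 on all 4 arrays. At an unadjusted p under 0.05, 29 of the 48 member genes (60.4%) and 73 of the 128 member probes (57.0%) passed, where 41.9% of all named genes and 36.6% of all probes did. These sets are unlike in brightness: 47 member genes and 118 member probes were bright, against 6993 of 10370 named genes and 24137 of 43595 probes. The share passing among bright genes alone was not computed, so no excess in the members is read from these counts.

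**Figure D2:**
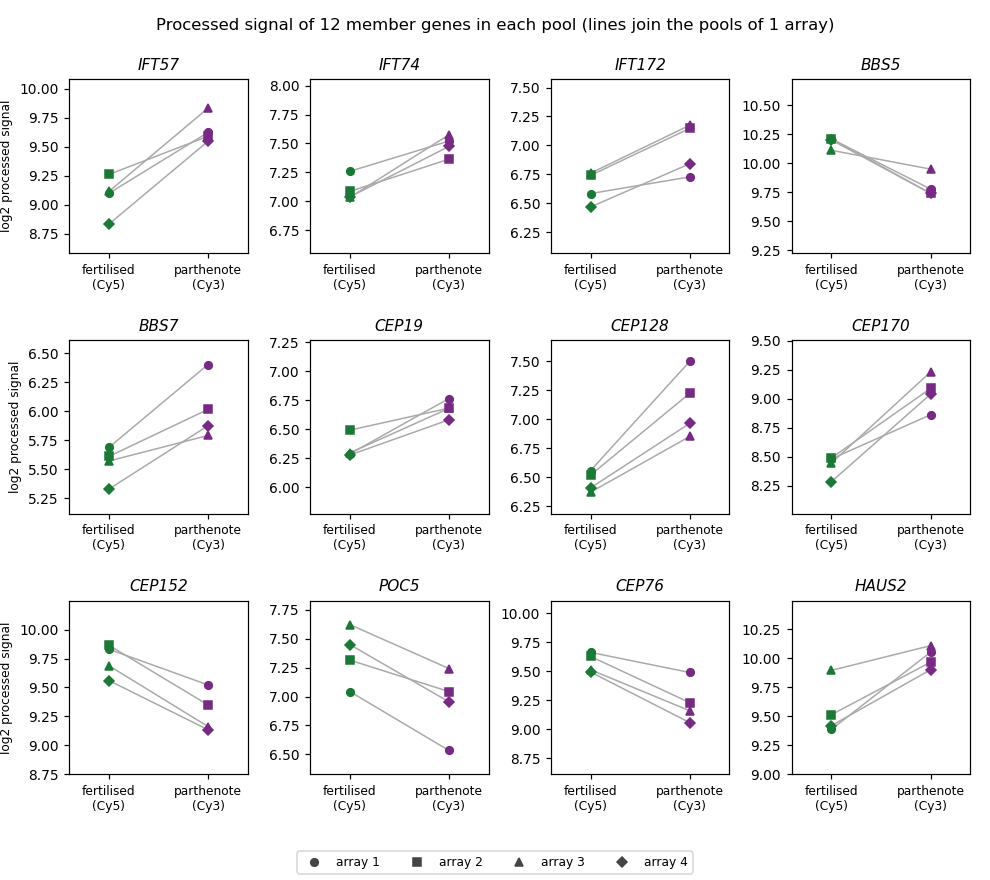
Each panel is a member gene and gives the log2 processed signal (vertical axis, own range of 1.5 log2 units in each panel) of the fertilised pools in green and the parthenote pools in purple; lines join the pools of 1 array. IFT57, IFT74, CEP19, CEP128 and CEP170 show parthenote pools that all lie above the fertilised pools, and BBS5, CEP152 and CEP76 the opposite, while pools of IFT172 and POC5 overlap across arrays and separate within them. The share of all genes whose pools separate was not counted.

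Motors that drive IFT went in different directions. Of 7 motor genes measured from a list of 10, 1 was higher and 2 were lower. The heavy chain of dynein-2, DYNC2H1, had -0.24 ± 0.05 (adjusted p = 0.0177) and its intermediate chain DYNC2I1 -0.39 ± 0.05 (adjusted p = 0.00907), both lower in parthenotes on all 4 arrays. The light chain DYNLRB2 had 1.98 ± 0.54 (adjusted p = 0.0244), and KIF3A, a motor subunit of kinesin-2, 0.06 ± 0.02 (adjusted p = 0.0572). Of the other dynein-2 chains, DYNC2I2 had 0.42 ± 0.23 (adjusted p = 0.0827) and DYNC2LI1 0.47 ± 0.24 (adjusted p = 0.0686), both above 0 on all 4 arrays and not past the threshold. The median of the 7 was 0.27, and 5 means were above 0.

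Markers of motile multiciliated cells, which also use IFT, differed as well. Of 28 such markers 15 had a tested probe that could be given a symbol. RSPH9, a listed marker that the paper reports as raised in parthenotes on these arrays, was not among them. Of the 15 markers 7 were higher, 1 was lower and the median ratio was 2.05, with array medians of 1.62, 0.63, 2.53 and 1.93. The summed processed signal of the 15 markers was between 1823 and 5016 in parthenote pools and between 601 and 759 in fertilised pools. Of the 15, 8 were well above background on 0 arrays in fertilised embryos, so that their fitted ratios, and the median that includes them, have no measured fertilised level behind them. Only 5 markers were well above background in both groups on all 4 arrays. Among these CAPS and CIMIP1 were higher and CCNO was lower. CCDC39 (1.59 ± 0.72, adjusted p = 0.0559, limma) and SPAG6 (1.08 ± 0.56, adjusted p = 0.0717, limma) did not pass. CAPS, a calcium-binding protein of ciliated cells, was well above background in both groups on all 4 arrays and had 2.42 ± 0.42 (adjusted p = 0.0125), as was CIMIP1, a protein inside ciliary microtubules, at 3.51 ± 1.26 (adjusted p = 0.0373). SPAG17, a central pair protein of motile axonemes, and RSPH1, a radial spoke protein, were well above background on all 4 arrays in parthenotes and on none in fertilised embryos. Set against the dimmest signal well above background on each array, SPAG17 was at least 2.69-fold higher and RSPH1 at least 1.38-fold higher. These bounds were not tested. Limma's adjusted p of 0.0146 for SPAG17 and 0.0120 for RSPH1 belong to the fitted ratios, which have no measured fertilised level behind them. The defining regulator FOXJ1, as well as DEUP1 and SPAG16, were not well above background on any array in either channel, and CCNO, needed for multiciliated cells to make their many centrioles, was the marker that was lower, at -1.02 ± 0.32 (adjusted p = 0.0304). Of 8 listed secretory markers of oviduct and uterus 3 were measured, and 2 were higher (OVGP1 at 3.87 ± 0.29 and SCGB1A1 at 2.75 ± 0.45). The third, WFDC2, had 0.01 ± 1.04 and did not pass. Their summed signals were between 8550 and 32698 in parthenote pools and between 4521 and 8174 in fertilised pools. Of 5 stroma and smooth muscle markers measured from a list of 6, 0 passed the test, and 3 were not well above background on any array in either channel. Leukocyte markers were higher for 3 of 5 genes (CD14, CD48 and CD68), with summed signals between 390 and 435 in parthenote pools and between 203 and 217 in fertilised pools. The other leukocyte markers, PTPRC and CD3E, were not well above background on any array in either channel. Markers of the embryo's own cells differed too. The trophectoderm keratin KRT8 was higher at 0.58 ± 0.22 (adjusted p = 0.0408), 1 of 4 measured trophectoderm genes from a list of 8, with 0 lower, ELF5 not well above background on any array, and summed signals between 21061 and 29747 in parthenote pools and between 17057 and 18869 in fertilised pools. POU5F1 was higher at 0.21 ± 0.03 (adjusted p = 0.0118), 1 of 2 measured epiblast genes from a list of 7, with summed signals between 11427 and 14157 in parthenote pools and between 9865 and 11053 in fertilised pools. The primitive endoderm gene GATA4, the only 1 measured of 5, had -0.34 ± 0.20 and did not pass. The marker lists were chosen with earlier results of these data known. The paper already reports CAPS, OVGP1, SCGB1A1 and CD48 as raised in parthenotes on these arrays, so the marker counts are not independent signs of a cell type. The part of these cell types in the IFT ratios and in the other member ratios was not tested.

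**Figure D3:**
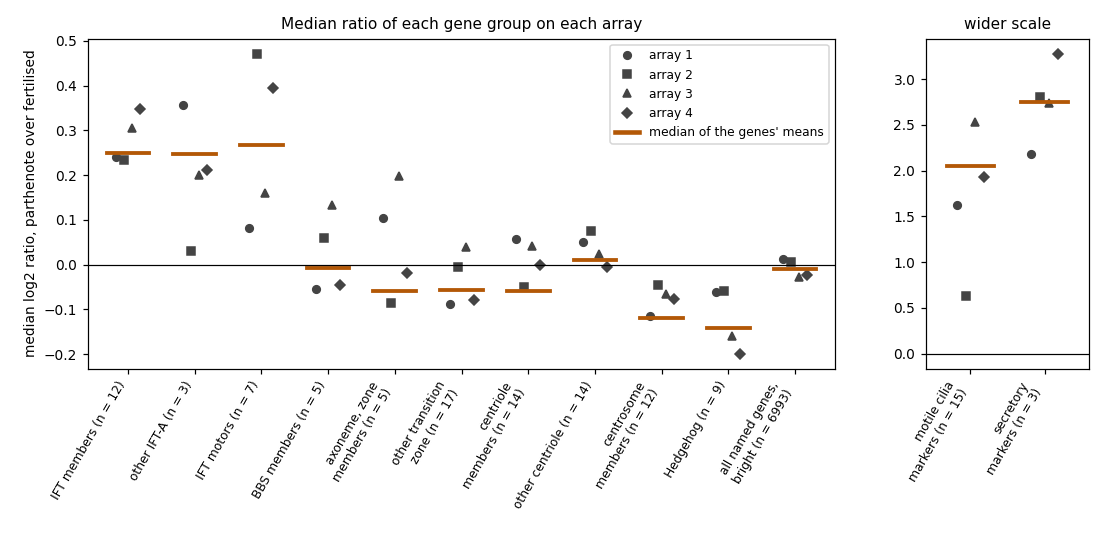
Points are the median log2 ratio of a gene group on each array and bars the median of the genes' means; the right panel has a wider vertical scale. The IFT members lie at 0.23 to 0.35 on the 4 arrays, the centrosome members between -0.11 and -0.05, and the motile cilia markers between 0.63 and 2.53.

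The BBS genes split. The BBSome is a coat-like complex that moves receptors out of the cilium, and BBS10 and BBS12 encode chaperonin-like proteins that help to assemble it. Of the 5 BBS genes measured, 0 were higher by their brightest probe, 1 (BBS5) was lower and 4 did not pass. The median was -0.01.

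BBS5, the BBSome subunit that binds phosphoinositides, measured 9.78, 9.74, 9.95 and 9.74 in parthenote pools and 10.21, 10.21, 10.11 and 10.20 in fertilised pools. Every parthenote pool was below every fertilised pool. The ratios were -0.43, -0.47, -0.16 and -0.46 on arrays 1 to 4, with a mean of -0.38 ± 0.15 (SD, n = 4, adjusted p = 0.0424), and the difference on array 3 was the smallest. All 4 BBS5 probes passed the test, with means between -0.41 and -0.38 and array 3 the closest to 0 in each. They are shown because they tile the transcript in steps, with each neighbouring pair sharing 20 bases (capitals), and still gave close values.
BBS5 probe 1: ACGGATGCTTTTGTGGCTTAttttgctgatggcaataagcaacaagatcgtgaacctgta
BBS5 probe 2: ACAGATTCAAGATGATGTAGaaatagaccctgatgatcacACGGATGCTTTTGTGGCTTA
BBS5 probe 3: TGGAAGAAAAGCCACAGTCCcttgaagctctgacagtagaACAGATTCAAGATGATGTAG
BBS5 probe 4: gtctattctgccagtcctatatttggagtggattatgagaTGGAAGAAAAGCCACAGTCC

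In the files' coordinates the BBS5 probes run from chr7:109246236-109248254 for probe 4 to chr7:109248315-109249993 for probe 1, each spread over 1535 to 2019 genomic bases. Probes of a gene are hybridised to the same RNA and are not replicates.

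BBS7, a scaffold subunit of the BBSome, pointed the other way. Its brightest probe had ratios of 0.72, 0.41, 0.22 and 0.55 and missed the threshold (0.47 ± 0.21, adjusted p = 0.0548), and its other 2 probes passed it, at 0.74 ± 0.20 (adjusted p = 0.0237) and 0.52 ± 0.19 (adjusted p = 0.0392). All 3 probes were above 0 on all 4 arrays. The probe with the largest ratio lies on the minus strand at chr15:97282098-97284214 and is given in lower case throughout because it shares no stretch with the others.
BBS7 probe 1: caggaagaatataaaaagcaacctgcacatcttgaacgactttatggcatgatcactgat

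BBS10 had 0.34 ± 0.39, of which array 3 held 0.91 and the other arrays 0.05 to 0.23. BBS12 had -0.01 ± 0.09 and BBS2, which pairs with BBS7 in the BBSome, -0.03 ± 0.06 (adjusted p = 0.523). Of the BBSome genes that the rule does not hold, 4 of 9 were measured. TTC8, a BBSome subunit also known as BBS8, was higher at 0.53 ± 0.14 (adjusted p = 0.0220). ARL6, the GTPase that recruits the BBSome to membranes, had -0.26 ± 0.21 and the chaperonin-like MKKS -0.24 ± 0.11, neither past the threshold. Subunits of 1 complex thus carried called ratios of both signs, with TTC8 higher and BBS5 lower.

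Members of the axoneme and transition zone are described next. The transition zone protein MKS1 had -0.07 ± 0.34, CEP41, which helps to glutamylate axonemal tubulin, -0.06 ± 0.29, and CEP162, which links axoneme and transition zone, -0.13 ± 0.13. The dim CEP126 probe had ratios of 0.00, -0.33, 2.72 and 1.26, and no call is drawn from it. Among 17 measured transition zone and nephronophthisis genes outside the rule, 2 were higher and 0 lower, with a median of -0.06. The 2 were AHI1 at 0.57 ± 0.17 (adjusted p = 0.0272) and B9D2 at 0.39 ± 0.06 (adjusted p = 0.0103).

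Centriole genes moved both ways, with 3 of 14 higher, 3 lower and 8 not past the threshold, and a median of -0.06. The higher calls depended on the dye scaling. With normexp and median centring 0 of the 14 were higher and 7 lower, and CEP128 (0.17), CEP170 (0.053) and CEP19 (0.028) did not pass, beside a median of -0.39 for all bright named genes. Of all 43595 probes, 14806 were called higher and 16804 lower there. With normexp and loess 2 were higher and 3 lower.

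CEP128 and CEP170 are proteins of the subdistal appendages, which anchor microtubules at the mother centriole. CEP128 had ratios of 0.94, 0.71, 0.48 and 0.56 (0.67 ± 0.20, SD, n = 4, adjusted p = 0.0285). CEP170 measured 8.86, 9.09, 9.23 and 9.04 in parthenote pools and 8.48, 8.49, 8.45 and 8.28 in fertilised pools, with every parthenote pool above every fertilised pool. Its ratio was 0.63 ± 0.19 (SD, n = 4, adjusted p = 0.0273), and all 4 of its probes passed, with means between 0.48 and 0.63. CEP19, which recruits the factors that start IFT entry into a new cilium, had 0.34 ± 0.12 (adjusted p = 0.0378), and 2 of its 3 probes passed.

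Other appendage genes did not pass the test. The distal appendage genes CEP83 (0.13 ± 0.06, adjusted p = 0.0655), CEP89 (0.22 ± 0.15) and CEP164 (-0.12 ± 0.12) anchor the centriole to the membrane, and the subdistal appendage gene CNTRL had -0.06 ± 0.16.

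CEP152 is the scaffold that brings the kinase PLK4 to the site where a new centriole grows. It measured 9.52, 9.35, 9.16 and 9.14 in parthenote pools and 9.83, 9.86, 9.69 and 9.56 in fertilised pools, and each parthenote pool was below each fertilised pool. The ratio was -0.44 ± 0.10 (SD, n = 4, adjusted p = 0.0184), and its second probe had -0.57 ± 0.13 (adjusted p = 0.0193). POC5, which binds centrin inside the distal centriole, had ratios of -0.51, -0.27, -0.38 and -0.49 (-0.41 ± 0.11, SD, n = 4, adjusted p = 0.0236). CEP76, which limits centriole reduplication, had -0.17, -0.40, -0.35 and -0.44 (-0.34 ± 0.12, SD, n = 4, adjusted p = 0.0347), and 3 of its 4 probes passed.

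Probes of the called centriole genes CEP170, CEP152 and POC5 are given here, with capitals for the 30 bases that the CEP170 probes share. For CEP152 the second probe is printed, not the brightest one that gave the call, because only probes with a reading frame free of stop codons were shown.
CEP170 probe 1: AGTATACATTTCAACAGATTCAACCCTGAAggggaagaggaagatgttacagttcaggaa
CEP170 probe 2: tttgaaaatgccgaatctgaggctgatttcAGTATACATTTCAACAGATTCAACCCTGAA
CEP152 probe 1: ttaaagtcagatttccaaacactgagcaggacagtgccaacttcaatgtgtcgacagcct
POC5 probe 1: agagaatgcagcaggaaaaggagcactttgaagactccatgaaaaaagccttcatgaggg

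The CEP170 probes lie at chr16:24379582-24379641 and chr16:24379552-24379611 and the CEP152 probe at chr17:23695495-23695554, and the files give no position for POC5.

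The remaining centriole members were near 0 or spread widely. CEP120, needed for centriole elongation, had 0.31 ± 0.33 with a negative value on array 3. CEP97, which caps the distal end together with CCP110, had -0.06 ± 0.15, and CEP44, which binds the inner centriole, -0.09 ± 0.09. CEP85, which acts in PLK4 signalling, had -0.20 ± 0.29 by its brightest probe. Another CEP85 probe was well above background on all 4 arrays in fertilised embryos and on 0 in parthenotes, with a ratio that did not pass (-0.31, adjusted p = 0.0702). With the normalization used for bounds, fertilised over parthenote was 1.04-fold. There the probe's own parthenote signal was used, so this value is a measured ratio and not a lower bound. This probe shared 55 or more bases with the other 4 CEP85 probes, whose ratios were between -0.20 and -0.04, none of them past the threshold.

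Centriole genes outside the rule were also split, with 3 of 14 higher, 4 lower and a median of 0.01. PLK4, the kinase that starts duplication, had -0.38 ± 0.09 (adjusted p = 0.0188), CPAP, which sets centriole length, -0.38 ± 0.10 (adjusted p = 0.0225), and CNTROB, a daughter centriole protein, -0.20 ± 0.06 (adjusted p = 0.0331). The last lower gene, the centrin CETN1, was not well above background on any array in either channel. SASS6, the cartwheel protein, had -0.06 ± 0.16, and STIL, which joins it to PLK4, -0.05 ± 0.09. The higher genes were TTBK2 at 0.43 ± 0.08 (adjusted p = 0.0150), the kinase that licenses a centriole to grow a cilium, the centrin CETN2 at 0.35 ± 0.10 (adjusted p = 0.0275), and CCP110, which blocks cilium growth, at 0.76 ± 0.30 (adjusted p = 0.0449) from a probe well above background on 3 arrays in parthenotes and on 1 in fertilised embryos.

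**Figure D4:**
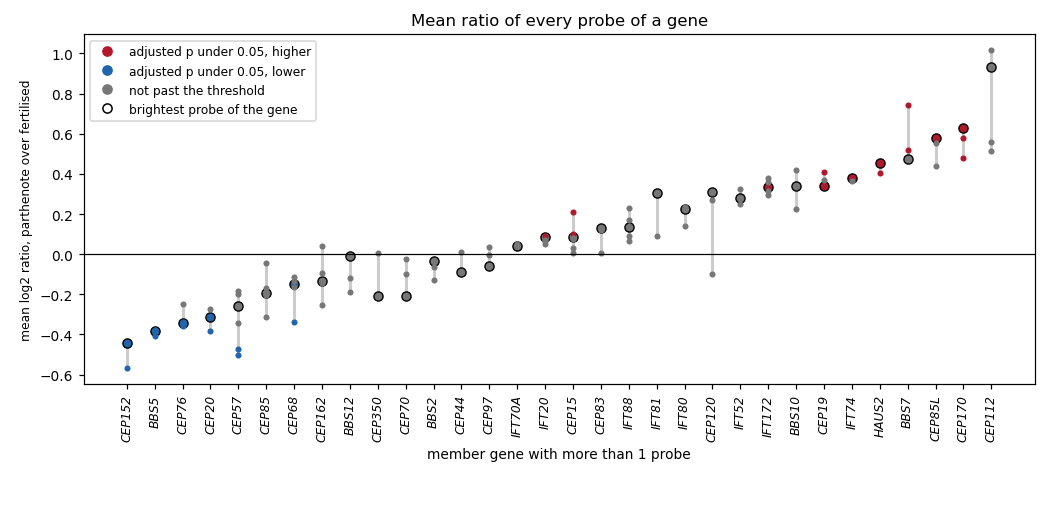
Each column is a member gene with more than 1 probe and each point the mean log2 ratio of 1 probe over the 4 arrays, ringed for the brightest probe and coloured where limma's adjusted p was under 0.05. Points of a gene cluster: in 27 of the 32 genes all probe means have 1 sign, and no gene has probes called in opposite directions.

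Centrosome genes without a place in the groups above had 2 of 12 members higher, 3 lower and a median of -0.12. CEP85L, a pericentriolar protein, had 0.78, 0.61, 0.47 and 0.46 (0.58 ± 0.15, SD, n = 4, adjusted p = 0.0220), and its other 2 probes had 0.55 and 0.44 without passing. HAUS2, a subunit of the augmin complex that branches spindle microtubules, had 0.67, 0.45, 0.21 and 0.48 (0.45 ± 0.19, SD, n = 4, adjusted p = 0.0472), and both of its probes passed. Under normexp with median centring HAUS2 turned to -0.14, above the median of -0.39 of bright named genes there.

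The lower centrosome genes changed little in size. CEP20, a centriolar satellite protein, had -0.31 ± 0.09 (SD, n = 4, adjusted p = 0.0258). CEP250 and CEP68 build the linker that tethers the 2 centrioles to each other, and both were lower on all 4 arrays. CEP250 had -0.18, -0.13, -0.28 and -0.23 (-0.20 ± 0.06, adjusted p = 0.0305), and CEP68 -0.16, -0.17, -0.18 and -0.09 (-0.15 ± 0.04, adjusted p = 0.0251), which are levels 1.15-fold and 1.11-fold lower. CEP250 had 1 probe. The 5 CEP68 probes shared 45 to 59 bases and had means between -0.34 and -0.11, and 2 of them passed.

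CEP57, which organises pericentriolar material around the centriole, showed how the choice of probe can matter. Its brightest probe had -0.26 ± 0.18 and did not pass, whereas 2 of its 6 probes did, at -0.50 and -0.47, and all 6 means were below 0. CEP15 had a brightest-probe ratio of 0.09 ± 0.05, with 2 of its 7 probes past the threshold at 0.10 and 0.21. CEP70, which binds gamma-tubulin, had -0.21 ± 0.09 (adjusted p = 0.0525) and CEP350 -0.21 ± 0.13. PCM1, the scaffold of centriolar satellites, had -0.09 ± 0.09, and CEP55, which acts in the last step of cell division, 0.20 ± 0.14.

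CEP112 had the largest mean of all members, 0.93 ± 0.63, without passing the test (adjusted p = 0.118). Its brightest probe measured 5.65, 5.50, 7.37 and 5.12 in parthenote pools and 4.15, 4.59, 7.30 and 3.87 in fertilised pools. Both pools on array 3 were high, and the ratio there was 0.06 against 0.91 or more on each of the other arrays. The other 3 CEP112 probes had means between 0.52 and 1.02 and none passed.

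Genes of mitotic centrosomes and spindle poles outside the rule had 0 of 13 higher and 1 lower, the kinase AURKA at -0.27 ± 0.06 (adjusted p = 0.0180), with a median of -0.10. The Hedgehog pathway, which is read through the primary cilium in mammals, had 0 of 9 measured genes past the threshold in either direction and a median of -0.14. In all, 46 of 77 listed pathway genes outside the rule were measured, of which 7 were higher and 6 lower, with a median of 0.01.

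Probes of the same gene largely moved together. Of the 48 genes, 32 had more than 1 probe and 27 of these had all probe means of 1 sign. In 28 of them the probes lay in more than 1 place of the transcript (fewer than 40 shared bases), and the median range between the lowest and highest probe mean of a gene was 0.13. In the 4 genes whose probes all shared 40 or more bases (IFT172, IFT20, CEP68 and CEP85) it was 0.15. The genes whose probe means had both signs were CEP120, CEP162, CEP350, CEP44 and CEP97, none of them called.

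The calls on single genes were fragile to the number of arrays. Without array 1, 7 of the 16 called genes still passed, and without array 2, 3 or 4 in turn 1 of 16 did (BBS5 without array 3 and CEP68 without array 4), while all 16 kept their direction each time. Calls over all probes fell too, from 8996 with all 4 arrays to 5736, 1939, 2636 and 1239 without array 1, 2, 3 and 4. These are totals of all calls made in each fit, not probes that kept their call. Whether the members lost more calls than other genes was not tested. All 16 also kept their direction with normexp and loess, where 10 passed, and 14 did with normexp and median centring, where 7 passed.

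**Figure D5:**
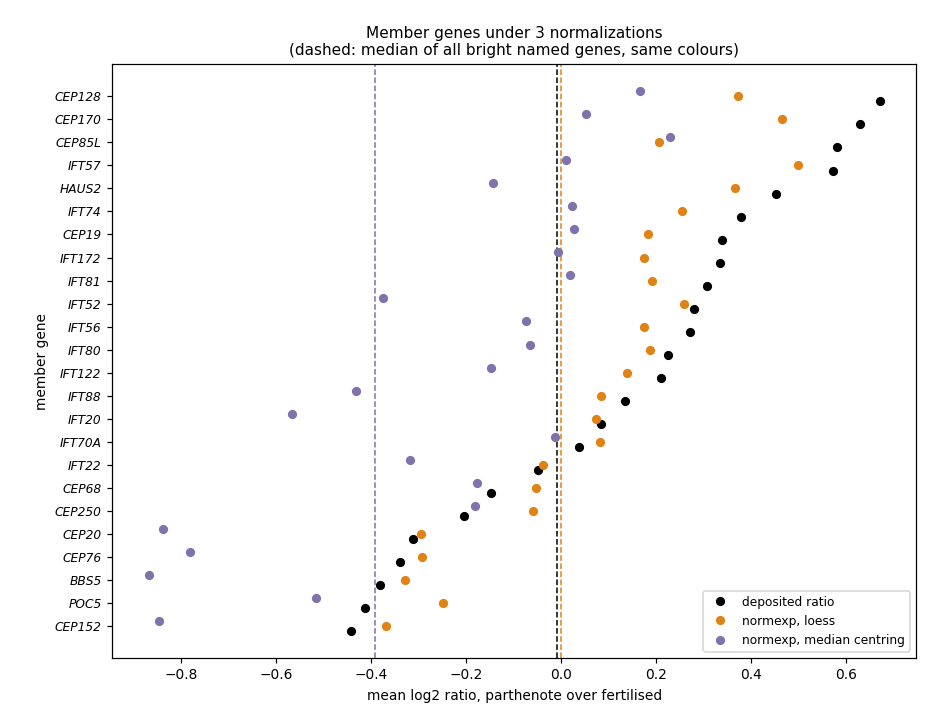
Points are mean log2 ratios of the 12 IFT genes and of called members with the deposited dye normalization (black), normexp with loess (orange) and normexp with median centring (purple); dashed lines give the median of all bright named genes in the same colours. Median centring moves that line to -0.39 and most genes with it, so that the IFT median is -0.07, and BBS5, CEP152 and POC5 stay left of 0 in all 3.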

How the data were processed

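Total RNA (150 ng per labelled sample, per the labels) of blastocyst pools was hybridised to 4 two-colour Agilent arrays. The authors ran Agilent Feature Extraction 10.10.1.1, and the deposited log10 ratios (Cy5 over Cy3) are background-subtracted and dye-normalized within an array. The deposited processed intensities were used for levels, and the deposited mean and background intensities for the alternatives. The series' value table equalled these log10 ratios with the sign turned (largest difference 5.0e-06, correlation -1 on each array) and median 0 in each column, so its direction is parthenote over fertilised, as used here.

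Ratios were turned to log2 parthenote over fertilised, spots of a probe were averaged, and spots marked non-uniform or outlying (26 to 48 per array, 0 on member probes) were left out. Probes measured on 3 or more arrays were tested against 0 with limma 3.58.1 (R 4.3.3; lmFit, eBayes, two-sided, Benjamini-Hochberg, threshold 0.05). The script was tested on simulated data with 50 changed probes at each size. It recovered 6 at 1.25-fold, 13 at 1.5-fold, 19 at 2-fold and 27 at 3-fold, with 3 false calls. A gene that did not pass is therefore not shown to be unchanged. Of 43603 probes, 23282 had a symbol through RefSeq accessions, identifiers or names. The other 20321 had none, so a listed gene counted as not measured can still have a probe on the array. The brightest probe stood for a gene. Levels of different probes were not compared. Bounds ("at least") compare, per channel after normexp, loess and Aquantile normalization, the bright group's mean with the higher of the dim probe's own signal and each array's lowest signal well above background, and are open to dye bias. The number of arrays limits the precision.

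Members and gene lists were chosen with earlier results of these data known. Members named with values were, in each role, up to 6 genes with the largest called ratio and 1 sign on all arrays, every IFT and BBS gene, and probes above background in 1 group only; other named genes were chosen after their values were seen. The result of 1 member gene is not reported here, though counts and medians include it. The pools of an array deviated from their group means together (correlations 0.60 to 0.65, at most -0.15 between arrays), and the ratio keeps this pairing. Alternatives were other background corrections and normalizations, filters, tests, probe choices and single arrays left out. Figures were drawn with matplotlib 3.10.9 (Python 3.11.15).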

Additional observations from a re-analysis of the deposited data

Results flagged for a closer look

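In 4 of the 48 member genes the value of 1 array lay far from the other 3, by Dixon's test at the 95% level, which chance gives in about 1 of 20 genes. BBS5 had -0.16 on array 3 and between -0.47 and -0.43 on the others. BBS12 had 0.13 on array 3 and between -0.06 and -0.05 on the others. IFT172 had 0.14 on array 1 against 0.37 to 0.41, and IFT52 had 0.00 on array 1 (-0.0032) against 0.36 to 0.40, so that without array 1 IFT52 was 0.38 (adjusted p = 0.0199, limma) and past the threshold.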

How the results depend on the processing

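All 16 called member genes kept their direction in every setting tried except normexp with median centring, where HAUS2 and IFT172 turned (on the repaired background HAUS2 and IFT57). With normexp and loess 10 of 16 still passed, with median centring 7, with the intensity trend and robust estimation 13, with a gene's probes averaged 13, with the dim-probe filter 15, and with the processed-signal ratio or marked spots kept all 16. The methods' t-test left 4 and the fit with no replicate block 12.

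With normexp and loess there were 9 higher member probes and 5 higher member genes, with medians of -0.0049 (centriole), -0.056 (centrosome) and 0.17 (IFT), and the uncalled genes BBS12 (0.0093), CEP41 (0.0038), CNTRL (0.0063) and MKS1 (0.031) changed sign. Over all 43595 probes, 3056 were called higher and 3456 lower. With normexp and median centring there were 61 lower member probes, 3 higher and 21 lower member genes, 14 higher motile cilia markers, and 3 higher and 27 lower pathway genes outside the rule. Over all 43595 probes, 14806 were called higher and 16804 lower in that setting. The medians were then -0.41 (BBS), -0.18 (centriole), -0.30 (centrosome) and -0.070 (IFT), and CEP15 (-0.42), CEP41 (0.022), CEP55 (-0.0076), CEP83 (-0.45), CEP85 (0.051), CEP89 (-0.23), HAUS2 (-0.14), IFT122 (-0.15), IFT172 (-0.0066), IFT20 (-0.57), IFT52 (-0.38), IFT56 (-0.074), IFT70A (-0.012), IFT80 (-0.066), IFT88 (-0.43) and MKS1 (0.066) changed sign. The median of all bright named genes was -0.39 in that setting and -0.44 on the repaired background.

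A repair of local background that lay more than 300 units above the spot, on 6 Cy3 and 6 Cy5 spots of array 2, was chosen after seeing the data. With it, normexp and loess gave 29 higher member probes, 14 higher member genes, 12 higher motile cilia markers and 15 higher pathway genes outside the rule, with medians of -0.070 (centrosome) and 0.19 (IFT), and BBS12 (0.0052) and CEP41 (0.017) changed sign. Over all 43595 probes, 6212 were called higher and 6552 lower. With the repair, median centring gave 68 lower member probes, 25 lower member genes, 14 higher motile cilia markers and 30 lower pathway genes, with medians of -0.47 (BBS), -0.22 (centriole), -0.34 (centrosome) and -0.096 (IFT). Most probes were called in that setting, 18572 higher and 18812 lower of 43595. There CEP15 (-0.46), CEP41 (0.038), CEP83 (-0.49), CEP85 (0.039), CEP89 (-0.27), HAUS2 (-0.15), IFT122 (-0.19), IFT20 (-0.60), IFT52 (-0.40), IFT56 (-0.071), IFT57 (-0.0083), IFT70A (-0.046), IFT80 (-0.12), IFT88 (-0.46) and MKS1 (0.029) changed sign. The cause of these shifts was not tested.

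The ratio of processed signals, which raised the median of all probes by 0.08, called 13912 probes higher and 7487 lower against 4155 and 4841, with 29 higher member probes, 13 higher motile cilia markers, and 12 higher and 10 lower pathway genes. The dim-probe filter, which tested 26725 probes and called 4928 higher and 6349 lower, gave 31 higher member probes and 12 higher pathway genes. The methods' t-test gave 6 higher and 3 lower member probes, 2 higher and 2 lower member genes, 4 higher motile cilia markers and 3 higher pathway genes, with 4435 calls over all probes. With no replicate block, so that the pairing of pools on an array was ignored, 4 member genes were lower, 12 motile cilia markers and 13 pathway genes were higher, and 11117 probes were called higher and 5241 lower. With members found by symbol only, the medians were -0.18 (centrosome) and 0.36 (axoneme and transition zone, which changed sign).

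Leaving out each array in turn gave 0 to 14 higher and 0 to 8 lower member probes, 0 to 6 higher and 0 to 3 lower member genes, 0 to 5 higher motile cilia markers, and 0 to 5 higher and 1 to 2 lower pathway genes. Over all probes there were 1239 to 5736 calls, against 8996 with no array left out. Medians ran from -0.085 to 0.0090 (centriole) and from -0.071 to 0.094 (axoneme and transition zone), while the IFT median stayed between 0.22 and 0.25. Uncalled genes near 0 changed sign: BBS12 (-0.055 to 0.011), CEP41 (-0.13 to 0.080), CEP97 (-0.10 to 0.016), CNTRL (-0.11 to 0.0018), IFT22 (-0.13 to 0.063), IFT70A (-0.090 to 0.14) and MKS1 (-0.16 to 0.094).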
